A study of Caenorhabditis elegans with 4 samples.

Results

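The regions described here are the 6mA peaks of the *Caenorhabditis elegans* genome whose nearest transcription start belongs to a non-coding RNA gene. They were chosen by the gene type of the deposited peak table, as the rows with the type ncRNA, which gave 102 of 365 listed peaks (27.9%, 95% exact binomial interval 23.4 to 32.9%). The peaks were divided by the prefix of the gene name into 14 nearest to piRNA genes (21ur-), 3 to long intergenic RNA genes (linc-), 3 to antisense RNA genes (anr-), 1 to a microRNA gene (mir-) and 81 to genes with a name made from a cosmid or YAC clone and a number (sequence-style names in the plots). Each of the 102 peaks had a nearest gene of its own, so no gene was counted more than once. The members were thus selected on 2 measured things, being listed as a peak and having an ncRNA gene as the nearest one.

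The study asked how N6-methyladenine (6mA), an adenine modification of DNA, changes in the genome when mitochondrial respiration is inhibited. Genomic DNA came from whole wild-type animals of strain Bristol at the L4 larval stage, kept at 22 °C. There were 4 libraries in 4 groups. The first was made with the antibody from animals given antimycin A, which blocks respiratory complex III, and the next from the same treatment with the antibody field set to none. The other two were the antibody library and the library without antibody of untreated animals. The treatment field gives 1.92 µM antimycin for both treated libraries and a title gives 1.93 µM for the treated antibody library. The start of treatment is given as the egg in one label and as L1 in another. The antibody label names N6-methyladenosine as the target, and how many animals made up a library is not stated in the labels.

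The deposited data are 1 list of peak positions, on the build ce10, with an annotation of each peak. The names of all 365 peaks begin with PO_AA_rep1, which looks like a sample name but is spelled out in no label. Whether the peaks come from treated animals, untreated animals or a contrast of both is therefore unknown. No label ties the list to a library, so no comparison of antimycin-treated with untreated animals was made. The list holds no peak height, enrichment, p-value or read count. Depth is unknown, and the absence of a listed peak at a gene does not show that the gene lacks 6mA. All 365 peaks carry the strand +, so the list does not say on which strand a modification lay, and peaks over overlapping or antisense genes cannot be given to one of them.

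Non-coding RNA genes of the worm fall into kinds with different work. piRNAs are short RNAs made from a very large number of tiny genes, each with its own start, and guide the Argonaute protein PRG-1 in the germline to silence foreign and repeated sequences. microRNAs are cut from hairpin precursors and repress messenger RNAs in most tissues. Long intergenic and antisense RNAs resemble messenger RNAs in length but are not translated, and the function of most is not known. Many of the short genes with clone-based names were annotated from RNA evidence alone and have no assigned role.

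Most of these peaks lay close to the start of the named RNA gene. The median distance was 437 bp on either side (95% interval of the median 300 to 745 bp, quartiles 130 and 1457.8 bp), against 1325 bp (1172 to 1529 bp) for the 261 peaks nearest to protein-coding genes. The nearest peak, at T06E8.6, lay 1 bp from the start and the farthest, at F45H7.15, 5897 bp downstream. Within 1000 bp of the start lay 68 of the 102 peaks (66.7%, 56.6 to 75.7%), against 39.1% for protein-coding genes and 47.0% of all listed peaks. Beyond 2000 bp lay 17 (16.7%, 10.02 to 25.3%), against 33.3% for protein-coding genes and 28.6% of all listed peaks. Distance to the nearest start belongs to what chose the genes, so these values are a description and were not tested.

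Peak centres lay upstream and downstream about equally often, with 54 upstream of the ncRNA start (52.9%, 42.8 to 62.9%). Of the peaks nearest to protein-coding genes 151 of 261 had the centre upstream (57.9%, 51.6 to 63.9%), and both intervals overlap.

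**Figure D1:**
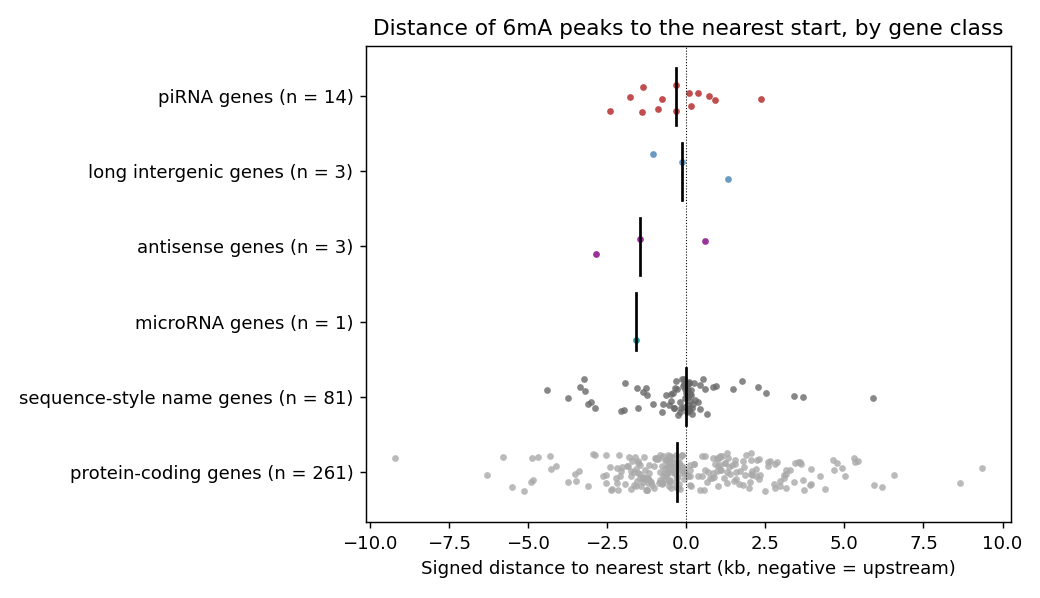
Signed distance of each peak to the nearest transcription start in kb (horizontal axis), with 1 point per peak, 1 row per class of nearest gene and a black line at each median. Points nearest to genes with clone-based names have a median of -4 bp, with quartiles of -543 and 161 bp and a range of -4413 to 5897 bp. The 14 piRNA points have a median of -311 bp and a narrower range, -2416 to 2377 bp. The protein-coding points have a median of -302 bp and run from -9195 to 9349 bp.

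Widths had the same median in both types. Peaks nearest to ncRNA genes had a median width of 404 bp (95% interval 359 to 431 bp, range 233 to 1362 bp), and those nearest to protein-coding genes also had a median of 404 bp (381 to 427 bp, range 229 to 1732 bp). Over 1000 bp wide were 5 of 102 (4.9%, 1.61 to 11.1%) and 11 of 261 (4.21%, 2.12 to 7.42%). By RNA class, the median was 432 bp for piRNA genes (264 to 1362 bp), 457 bp for long intergenic genes (390 to 469 bp), 364 bp for antisense genes (332 to 656 bp) and 393 bp for genes with clone-based names (233 to 1312 bp). The ranges of all 4 classes overlap.

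Set against the gene itself, the peak often lay over the whole RNA gene. The ncRNA genes were short, with a median length of 117 bp in the gene table (21 to 4007 bp), and a peak is several times as wide. The peak reached across the start in 35 of 102 cases (34.3%, 25.2 to 44.4%), against 17 of 261 (6.51%, 3.84 to 10.2%) for protein-coding genes and 14.6% of all listed peaks. It covered the gene from end to end in 31 cases (30.4%, 21.7 to 40.3%), against 3 of 255 protein-coding genes with a length in the table (1.18%, 0.243 to 3.4%). Among all listed peaks whose gene has a length, the share was 9.78% (35 of 358). The 31 covered genes measured 21 to 238 bp. The lengths of the genes differ so much between the types that covering a gene compares little else.

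Of the 35 peaks across a start, 4 did not reach the end of the gene, namely those at linc-91, F52H2.13, F46H5.10 and C03A3.7. A further 7 peaks overlapped the gene without touching its start: 21ur-8691, anr-20, linc-40, F10F2.15, W07G9.3, W06H8.5 and C54D2.9. Of the remaining 60, 42 ended upstream of the gene, with a median gap of 1027 bp to the start, and 18 began past its end, with a median gap of 441 bp.

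**Figure D2:**
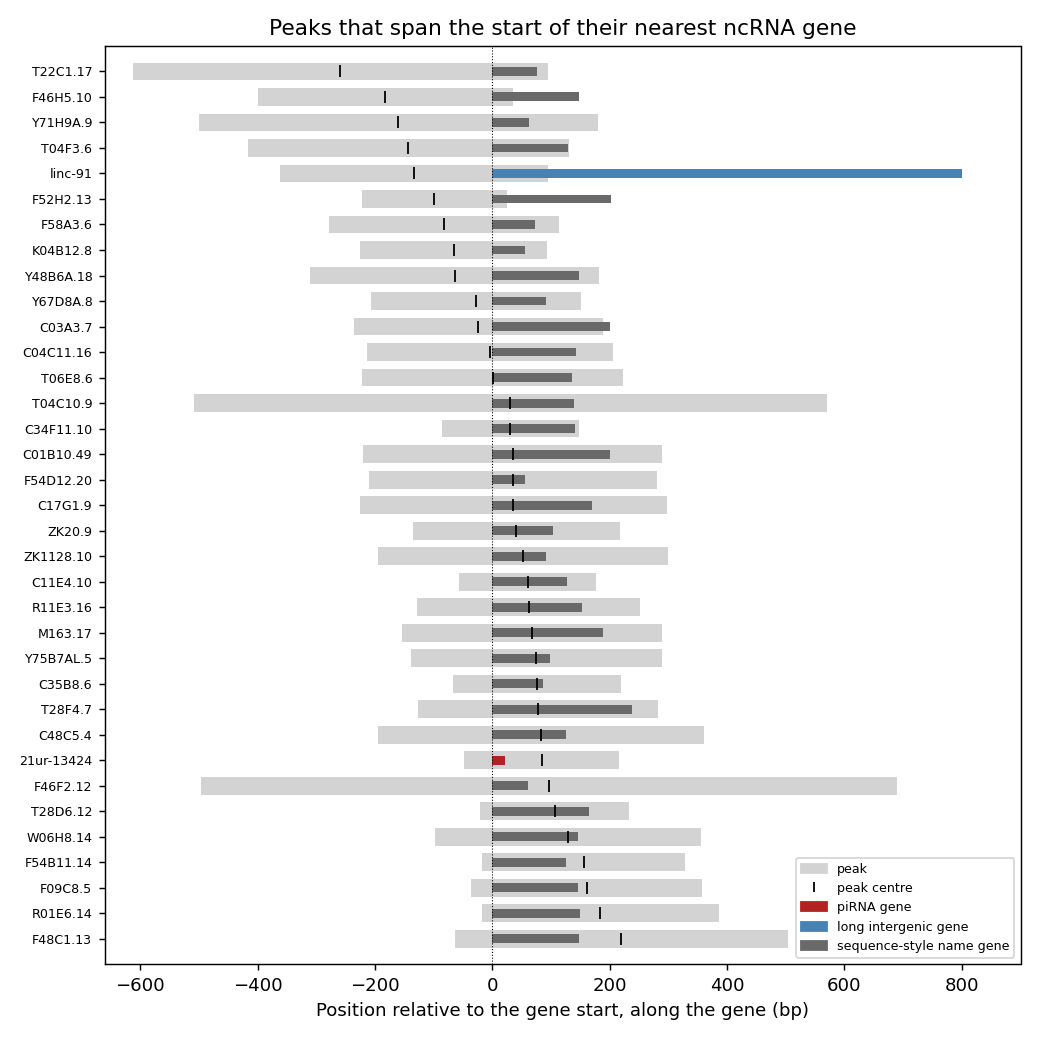
Each row is 1 of the 35 peaks that reach across the start of their nearest ncRNA gene, drawn along the gene in bp with the start at 0. Grey bars are the peaks, ticks their centres and dark bars the genes (the 3257 bp of linc-91 are cut off at the right). In 31 rows the grey bar covers the whole gene.

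By the deposited annotation, promoters held 56 of the 102 peaks (54.9%, 44.7 to 64.8%). The share among all listed peaks was 37.8%, and among peaks nearest to protein-coding genes it was 81 of 261 (31.0%, 25.5 to 37.0%). Termination sites held 17 (16.7%, 10.02 to 25.3%), against 40 of 261 (15.3%, 11.2 to 20.3%). Intergenic peaks numbered 16 (15.7%, 9.24 to 24.2%), against 63 of 261 (24.1%, 19.1 to 29.8%). Introns held 10 (9.8%, 4.8 to 17.3%), against 65 of 261 (24.9%, 19.8 to 30.6%) and 20.5% of all listed peaks. One peak lay in an exon of a coding gene and 2 in exons of non-coding transcripts.

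The intervals of ncRNA and protein-coding genes do not overlap for promoters and introns and overlap for the other classes. The promoter class depends on the distance that picked the gene, and no test was made. Among the 41 promoter peaks tied to the RNA gene's own transcript, the distance ran from -903 to 96 bp. In the 11 termination-site peaks tied to the own transcript, the peak centre lay between 58 bp before (-58 bp) and 874 bp after the end of the gene. At a short RNA gene the promoter and the termination class lie close together. The peak of 568 bp at F48C1.13, a gene of 148 bp, was filed under termination and also reached across the start.

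**Figure D3:**
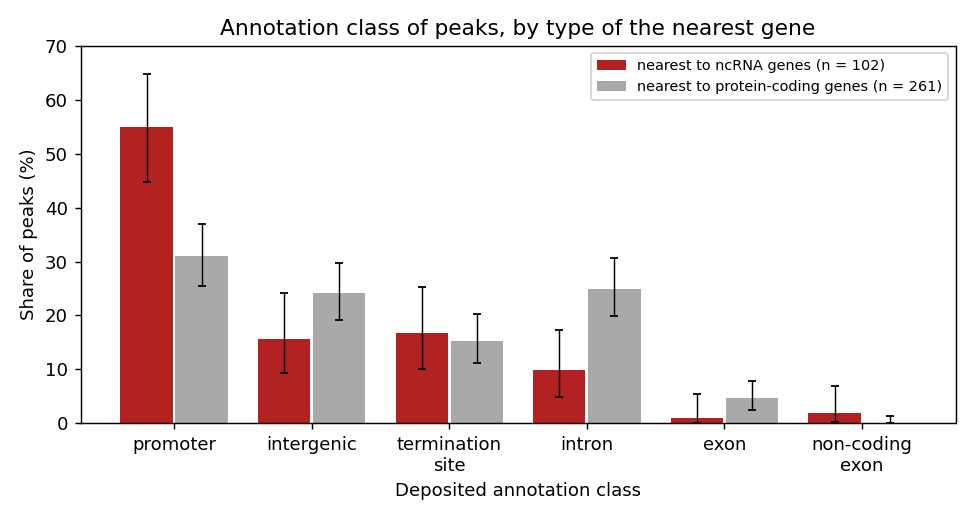
Share of peaks in each deposited annotation class in percent (bars start at 0, whiskers are 95% exact binomial intervals), for peaks nearest to ncRNA genes on the left of each pair and to protein-coding genes on the right. Promoters took 54.9% against 31.0% and introns 9.8% against 24.9%.

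The transcript to which a peak was annotated, by its promoter or termination site or by a part of it, was often not that of the RNA gene named as nearest. Of 86 peaks with an annotated transcript, 30 (34.9%, 24.9 to 45.9%) had one other than that at the nearest start. The same held for 70 of 198 peaks nearest to protein-coding genes (35.4%, 28.7 to 42.4%), where another transcript of the same gene also counts. By gene, the transcript belonged to another gene in 28 of 84 ncRNA cases (33.3%, 23.4 to 44.5%). For protein-coding genes it did so in 39 of 161 (24.2%, 17.8 to 31.6%), and both intervals overlap. Among the 30 ncRNA peaks with another transcript, 18 had one that the gene table gives to a protein-coding gene, 8 to an ncRNA gene and 2 to a piRNA gene. The remaining 2 transcripts did not match the table.

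Introns of coding genes held 6 of these peaks. The peak nearest to 21ur-14024 lay within *unc-43* (intron 2 of 18), which encodes the worm CaMKII, and that nearest to H13N06.8 in intron 9 of 12 of *gcy-36*, which encodes a soluble guanylate cyclase of oxygen-sensing neurons. F54F11.4 had its peak in intron 10 of 13 of *nep-17*, a neprilysin-family peptidase gene. The peaks of F53A3.8, Y49E10.35 and C43D7.15 lay in introns of *pqn-41*, *arrd-16* and C14B4.2. The only exonic peak, nearest to M110.11, lay in exon 7 of 11 of *qua-1*, a hedgehog-related gene, 1751 bp downstream of the M110.11 start.

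Promoters of coding genes held another 6. They were those of *emr-1*, which encodes the nuclear envelope protein emerin (nearest gene M01D7.11), *ceh-43*, a Distal-less homeobox gene (C28A5.8), *pfas-1*, a purine synthesis enzyme gene (F10F2.10), *sgnh-1* (21ur-8691), W06H8.6 (W06H8.14) and R01E6.5 (R01E6.14). In each of the 6 the peak centre lay downstream of the ncRNA start, by 129 bp at W06H8.14 to 848 bp at F10F2.10. The peaks of W06H8.14 and R01E6.14 also reached across the start and covered the RNA gene. Termination sites of coding genes took 5 more. These were *perm-1*, an eggshell barrier gene, with linc-93 as nearest gene, *fbxa-28* with anr-53, *nhr-175*, a nuclear hormone receptor gene, with F09F3.15, Y48C3A.5 with T22F3.14 and H03A11.2 with H03A11.6. The gene table places T22F3.14 on chromosome V, while its peak lay on chromosome II. All 5 of these peaks lay upstream of the ncRNA start, by distances of -1051 bp at linc-93 to -3104 bp at T22F3.14.

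The piRNA genes were nearest to 14 peaks, and the peaks mostly lay beside the gene and not on it. The distances had a median of 832 bp on either side (84 to 2416 bp), with 8 peak centres upstream and 6 downstream. A single peak, at 21ur-13424 on chromosome X (7961847 to 7962110), was centred 84 bp downstream of the start, reached across it and covered the 21 bp gene. The peak of 21ur-8691 (chromosome IV, 4889518 to 4889785) overlapped its gene by its edge, centred 153 bp downstream.

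Promoter class was given to 7 piRNA peaks. Those of 21ur-9114 (distance -310 bp), 21ur-6966 (-903 bp) and 21ur-13424 were tied to the gene's own transcript. Those of 21ur-8889 (-312 bp) and 21ur-8623 (-770 bp) were tied to neighbouring piRNA genes, 21ur-12119 and 21ur-14983. That of 21ur-6496 (360 bp) was tied to the ncRNA gene C43G2.25 and that of 21ur-8691 to *sgnh-1*. Thus 4 of the 7 were tied to a transcript other than that of the piRNA gene named as nearest.

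The other 7 piRNA peaks were intergenic (21ur-12669 at -1789 bp, 21ur-13313 at -1412 bp and 21ur-14082 at -1364 bp), at termination sites (21ur-1709 at 719 bp and 21ur-12944 at 894 bp) or intronic (21ur-5666 and 21ur-14024). The peak of 21ur-12944 was 941 bp wide, and the gene table places that piRNA gene inside *daf-38*, a receptor gene for pheromone signals of the dauer pathway. That of 21ur-5666 lay in intron 2 of 2 of the ncRNA gene Y116A8C.48, 2377 bp downstream of the piRNA start.

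**Figure D4:**
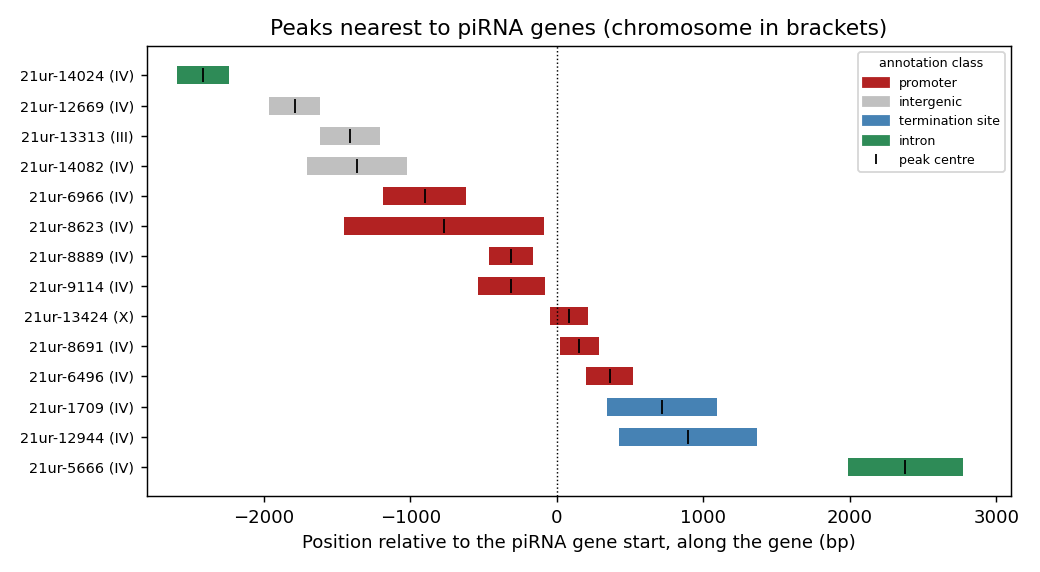
Each bar is 1 of the 14 peaks nearest to a piRNA gene, drawn along the gene in bp with the gene's start at 0 and coloured by the deposited annotation class, with ticks at peak centres. The bar of 21ur-13424 is the single one that crosses 0. The bar of 21ur-8623 is the widest, at 1362 bp, and ends 89 bp before the start.

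Chromosome IV carried 12 of the 14 piRNA peaks, chromosome III 1 (21ur-13313) and chromosome X 1 (21ur-13424). The gene table places 14714 of 15363 piRNA genes (95.8%) on chromosome IV, 78 on III and 162 on X. Along chromosome IV the peaks fell into 3 stretches. Between 4889518 and 6576412 there were 4 listed peaks, of which 3 were nearest to piRNA genes and the other to *msp-113*, a major sperm protein gene. A lone piRNA peak, that of 21ur-14024, lay at 10344705 to 10345057. Between 13360718 and 17141293 there were 12 listed peaks, of which 8 were nearest to piRNA genes and 4 to protein-coding genes (Y38H8A.12, B0513.2, *lin-66* and F55B11.5). The ends of these stretches are the outermost piRNA peaks themselves. The 7 peaks of clone-named ncRNA genes on chromosome IV all lay outside the first and last stretch. So did most of the 63 listed peaks on this chromosome, as those stretches held 4 and 12 of them.

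By number of genes, 14 of 15363 piRNA genes (0.0911%) were named as nearest to a listed peak, against 79 of 7762 genes of the ncRNA biotype (1.02%) and 252 of 19983 protein-coding genes (1.26%). The share was 0.763% over all 46926 genes in the table. Of the smaller kinds, 6 of 294 lncRNA and antisense RNA genes together (2.04%), 2 of 260 miRNA genes (0.769%) and 2 of 346 snoRNA genes (0.578%) were named. These shares do not allow for the amount of sequence that each gene is nearest to, which is small where many genes crowd into a stretch.

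The 3 long intergenic RNA genes each had the peak in another relation to the transcript. That of linc-91 (chromosome I, 4699249 to 4699705) was a promoter peak 133 bp upstream (-133 bp) and reached across the start of this 3257 bp gene. That of linc-40 (chromosome III, 1327002 to 1327391) lay in intron 2 of 3 of its own transcript at 1305 bp, within the gene's 1834 bp. That of linc-93 (chromosome II, 7883118 to 7883586) lay at -1051 bp, at the termination site of *perm-1*. Listed peaks nearest to coding genes stood close by in 2 of these cases: one assigned to the chromodomain helicase gene *chd-7* was centred 2572.5 bp from that of linc-91, and one assigned to the F-box gene *fbxa-15* was centred 6597.5 bp from that of linc-40.

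Of the 3 antisense RNA genes, anr-20 alone had the peak within the gene. It lay in the single exon of the transcript (chromosome I, 9382731 to 9383386), 600 bp downstream of the start of a 1091 bp gene. The gene table places anr-20 within *ppfr-1*, which encodes a regulatory subunit of protein phosphatase 4. The peaks of anr-53 (chromosome III, 1299667 to 1300030) and anr-49 (chromosome X, 1528974 to 1529305) lay at -1473 and -2838 bp, at a coding gene's termination site and between genes.

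The microRNA gene mir-2215 had an intergenic peak of 468 bp (chromosome II, 13335170 to 13335637) at -1576 bp, with a gap of 1342 bp between the peak's edge and the 65 bp gene. A peak at -5 bp from a further microRNA gene, mir-73 (chromosome X, 2368564 to 2368956), has the type miscRNA and is not among the 102.

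The 81 genes with clone-based names had a median length of 125 bp (49 to 2525 bp). The gene table calls 79 of them ncRNA and 2 snoRNA, ZK20.9 and F26A10.28. Their peaks had the smallest median distance of the classes, 371 bp (189 to 543 bp), and 33 (40.7%, 29.9 to 52.2%) reached across it. Of the 14 piRNA peaks 1 did (7.14%, 0.181 to 33.9%). Both intervals overlap.

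The 10 peaks nearest to a start in this class were centred on or beside the gene. The peak of T06E8.6 (chromosome V, 10039799 to 10040243) was centred 1 bp downstream of the start of a 135 bp gene. That of C04C11.16 (chromosome X, 14024503 to 14024921) lay at -4 bp and covered the 142 bp gene, whereas that of C03A3.7 (chromosome X, 11248081 to 11248504) lay at -24 bp and stopped short of the end of the 200 bp gene. That of Y67D8A.8, on chromosome X, lay at -28 bp, but the gene table places a gene of this name and transcript on chromosome IV, so the name is uncertain. C34F11.10 (chromosome II, 5227968 to 5228201) and T04C10.9 (chromosome X, 14818556 to 14819633) both had the peak at 31 bp, but the first was 234 bp wide and the second 1078 bp. F54D12.20 and C01B10.49 had it at 35 bp, C17G1.9 at 36 bp and the snoRNA gene ZK20.9 (chromosome II, 11635091 to 11635442) at 41 bp. snoRNAs guide the modification of ribosomal and other RNAs. All of these peaks have the promoter class, and that of T04C10.9 was tied to the neighbouring ncRNA gene T04C10.7.

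The 5 farthest peaks of the class were F45H7.15 (5897 bp), F53A3.8 (-4413 bp), H15M21.1 (-3724 bp), H13N06.8 (3689 bp) and Y70D2A.6 (3404 bp). The peak of F45H7.15 (chromosome III, 12009128 to 12009532) was placed in intron 1 of 1 of the gene's own transcript, but the gene table gives that gene a length of 94 bp within *gei-1*. The annotation of the peak and the gene table thus hold different models of this gene. The 5 widest were Y70D2A.6 (1312 bp, intergenic), F46F2.12 (1186 bp, promoter), T04C10.9 (1078 bp), Y49E10.35 (1049 bp) and K09E9.8 (855 bp, intergenic). F46F2.12 lies within *kin-20*, which encodes a casein kinase 1 of the developmental timing pathway. Of these 5 peaks 4 lay on chromosome X, and the exception, that of Y49E10.35, lay on chromosome III. Chromosome X held 30 of the 81 peaks of the class. The median width of all ncRNA peaks was 392 bp on X and 409 bp on the autosomes, so wide peaks were not typical of X.

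The peak of W06H8.5 (chromosome V, 6221327 to 6221662) lay in the single exon of this 2525 bp gene, 2279 bp from the start and so close to its end. W06H8.14 had a peak 6275 bp away (centre to centre), in the promoter of W06H8.6, and the gene table places W06H8.5 within W06H8.6. In the same manner the peaks of F16A11.13 and anr-20 were 1641.5 bp apart, and both genes lie within *ppfr-1*. These were the 2 pairs of neighbouring ncRNA peaks within 10 kb. In 12 more pairs at that distance an ncRNA peak neighboured a peak nearest to a protein-coding gene, among them M01D7.11 with the Gq alpha gene *egl-30* (4917 bp) and R11E3.16 with *set-15* (3594.5 bp).

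Chromosome X carried 32 of the 102 peaks, and ncRNA genes were nearest to 44.4% of its 72 peaks (32.7 to 56.6%), against 24.0% of the 292 autosomal peaks (19.2 to 29.3%). Without piRNA genes the counts were 31 on X (43.1% of its peaks, 31.4 to 55.3%) and 57 on the autosomes (19.5%, 15.1 to 24.5%). On the autosomes the share ran from 19.4% on chromosome I (12 of 62) to 30.2% on IV (19 of 63), with 12 of 44 on II, 14 of 61 on III and 13 of 62 on V. The number of genes differs in the same direction. The gene table places 2520 of 7762 genes of the ncRNA biotype (32.5%) on X. Of these 28 were named as nearest to a peak (1.11%), against 51 of 5242 on the autosomes (0.973%).

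**Figure D5:**
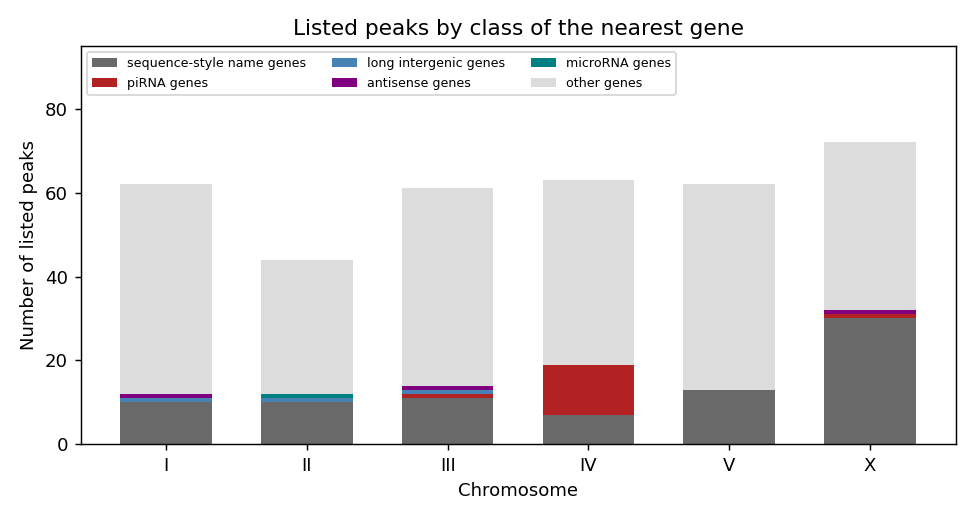
Number of listed peaks on each nuclear chromosome (bars start at 0), stacked by the class of the nearest gene. Chromosome X has 30 peaks nearest to ncRNA genes with clone-based names, against 7 to 13 on each autosome, and 12 of the 14 piRNA peaks are on chromosome IV.

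Peaks of ncRNA genes had a smaller median distance to the start on X. The median distance was 171.5 bp (83 to 591 bp, n = 32) on X and 659.5 bp (378 to 1281 bp, n = 70) on the autosomes. Without piRNA genes it was 182 bp (83 to 591 bp, n = 31) on X and 524 bp (328 to 1305 bp, n = 57) on the autosomes. The start lay under the peak in 18 of 32 cases on X (56.2%, 37.7 to 73.6%) and 17 of 70 on the autosomes (24.3%, 14.8 to 36.0%), or without piRNA genes 17 of 31 (54.8%, 36.0 to 72.7%) and 17 of 57 (29.8%, 18.4 to 43.4%). Without piRNA genes both pairs of intervals overlap. Peaks nearest to protein-coding genes were at a median of 1497 bp on X (808 to 2424 bp, n = 39) and 1287.5 bp on the autosomes (1091 to 1529 bp, n = 222). They reached across the start in 0 of 39 cases on X (0 to 9.03%) and 17 of 222 on the autosomes (7.66%, 4.52 to 11.98%). The median widths of the ncRNA peaks were 392 bp on X and 409 bp on the autosomes (intervals 325 to 444 and 359 to 455 bp). The part that the number of ncRNA genes on X has in these values was not tested.

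Many of the RNA genes lie inside a coding gene. By the gene table's positions, 38 of the 102 (37.3%, 27.9 to 47.4%) fell within the span of a protein-coding gene, and 36 of the 88 that are not piRNA genes did (40.9%, 30.5 to 51.9%). Of all 7762 genes of the ncRNA biotype 42.4% did, so the 88 were near that share. The 88 also include long intergenic, antisense, microRNA and snoRNA genes, which are of other biotypes. The 38 include T22F3.14, which the gene table places on another chromosome than its peak. Of the 14 piRNA genes with a peak 2 were inside a coding gene (14.3%, 1.78 to 42.8%), and 37.7% of all piRNA genes were. The table gives no strand, so sense and antisense positions could not be told apart.

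Some of the coding genes that hold them are well known and are named as examples, picked after their values were seen. ZK617.19 (peak at -485 bp) lies within *unc-22*, which encodes the giant muscle protein twitchin, and C06E1.14 (-764 bp) within *glr-1*, which encodes an AMPA-type glutamate receptor subunit. Y50D4C.11 (-2881 bp) lies within *unc-34*, the worm Enabled gene of axon guidance. C39E6.12 (665 bp) lies within *lon-2*, a glypican gene that restrains body-size signalling. C26C6.12 (-487 bp) and F48C1.13 (220 bp) lie within *pbrm-1* and *let-526*, which encode subunits of SWI/SNF remodelling complexes. No function was counted over all of the holding genes.

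For these 38 genes, the peak was annotated to the coding gene's transcript in 6 cases (15.8%, 6.02 to 31.3%). In 21 cases it was annotated to the RNA gene's own transcript (55.3%, 38.3 to 71.4%). These annotations include promoters and termination sites, so such a peak need not lie within the transcript. Of all 102 peaks, 56 were annotated to the own transcript. Among genes with clone-based names, the peak reached across the start in 9 of 35 that lie inside a coding gene (25.7%, 12.5 to 43.3%) and in 24 of 46 outside (52.2%, 36.9 to 67.1%). The median distances were 543 bp inside (286 to 1523 bp) and 172.5 bp outside (83 to 436 bp). Both pairs of intervals overlap.

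Listed peaks were also looked up at the protein genes that make small RNAs or act with them. Of 18 microRNA pathway genes, including the processing enzymes *drsh-1* and *dcr-1* and the Argonautes *alg-1* and *alg-2*, 1 had a listed peak, *alg-1*, at -417 bp (chromosome X, 13950615 to 13951133). Of 32 genes of the piRNA and related silencing pathways found in the gene table, including *prg-1*, *prde-1*, *snpc-4*, *henn-1* and *hrde-1*, 0 had one. Among protein-coding genes in general 1.26% had one, so lists this short say nothing about these genes as a group.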

How the data were processed

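Per the labels, 4 genomic DNA libraries were made, 1 per group. Per the submitters' processing notes, the tools were MACS2 2.1.0, Bowtie2 2.2.6, Trimmomatic 0.35 and Picard on build ce10, with no role stated. Which peaks entered the deposited list, and by which tool they were annotated, is not stated in the labels or the header. Per the file headers, the table holds positions, an annotation class, a signed distance to the nearest start, a transcript, and the gene's name and type.

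Peak width was end minus start plus 1. The distance was taken as that of the peak's centre. In a check on 120 pairs of neighbouring peaks within 100 kb, the spacing of their genes in the gene table was met within 2 bp by 30 pairs from peak centres, 2 from starts and 0 from ends. Most pairs were thus met from none of these points. Gene lengths, biotypes and neighbours came from an NCBI RefSeq gene table of WBcel235, whose coordinates are not printed because the build differs. All 102 genes matched by symbol and by transcript. Lengths from one build and distances from another were combined to place peaks on genes, so a gene whose model changed is misplaced. F45H7.15 is such a case, and how many more of the 102 are was not determined. The table places 2 of the 102 nearest genes on another chromosome than the peak (T22F3.14 and Y67D8A.8), and likewise 1 annotated transcript, T26H2.15 at the peak nearest to W02B8.13, besides that of Y67D8A.8. Short RNA genes can have near-identical copies, so these names are uncertain.

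Shares carry exact (Clopper-Pearson) 95% binomial intervals and medians carry 95% order-statistic intervals, both for counting error over listed peaks only. Peaks are not replicates, and no test was made. The arithmetic of placing peaks on genes was tested on simulated data, with 2000 of 2000 pairs placed as drawn. The simulated pairs used the same model of peak centre and gene length. They could therefore not test whether distances start at the centre or whether the gene lengths are right. The members, lists and naming rule were chosen with earlier results of these data known. Named were all members with a class prefix and, of the others, the 10 nearest, 5 farthest and 5 widest, those in exons and pairs of ncRNA peaks within 10 kb of each other. Other genes were named after their values were seen. In the piRNA pathway list 2 of 34 names (*tofu-3* and *mut-2*) did not match the table. Promoter motifs were not analysed here. Python 3.11.15, NumPy 2.4.6, pandas 2.3.3, SciPy 1.17.1 and Matplotlib 3.10.9 were used.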

Additional observations from a re-analysis of the deposited data

How the results depend on the processing

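The promoter share of 54.9% became 39.2% when promoters were defined by a window from 500 bp before to 100 bp after the nearest start, a narrower window by construction that also ignores promoters of other genes, and 58.8% with 2000 bp before it. The median distance of 437 bp became 254.75 bp when measured from the nearer edge of the peak, which is shorter by construction. The other alternatives stayed within 1.5 times a count or within the 95% interval of a share or median: the number of peaks (102 to 103), the width (393 to 404 bp), the share with another transcript (33.3% through the gene table), the piRNA peaks on chromosome IV (88.9% within 1000 bp, 8 of 9) and the values without piRNA genes or without 2 genes whose chromosome differs in the gene table. The settings for peaks across a start (38.6% without piRNA genes, 40.2% with peaks widened by 100 bp), for chromosome X, for genes inside coding genes and without those 2 genes (55.0% promoters, median 437 bp) were chosen after seeing the data. No paired analysis was possible because no group has replicates and the result comes from a single list of peaks, without read depth.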
